A study of Mus musculus with 2 samples.

Results

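Fatty acid oxidation and its control by the nuclear receptor PPAR alpha were followed through 32 genes in the small intestine of mice on a food antigen-free diet. The genes are enzymes of fatty acid breakdown in mitochondria and peroxisomes, and targets of PPAR alpha that respond to fasting. They were chosen by symbol, and all array probes that carry one of these symbols, in the array file or through the current name of the probe's accession, were taken. This gave 44 of the 41174 non-control probes. All 32 genes were measured, out of 17162 measured genes in all, and each was well above background in both diets on both arrays.

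RNA from mice kept on an amino acid diet free of food antigens, abbreviated FAF, was compared with RNA from mice on conventional chow, abbreviated Conv. Both groups were C57BL/6 mice of 6 to 8 weeks, and the FAF line had been on its diet for up to 5 generations. The labels name specific-pathogen-free and germ-free mice without saying which gave these RNAs, and they do not say whether a sample was a single mouse or a pool. The same pair of RNAs was hybridised to 2 two-colour Agilent arrays with the dyes exchanged, so there was 1 RNA sample per diet. No test between diets was therefore possible, and no p-value is given. Each ratio below is the log2 ratio of FAF over Conv, averaged over both arrays. The value after ± is the distance of either array from that mean. It holds the error of dye and hybridisation, and says nothing of the spread between mice.

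Fatty acids are activated to acyl-CoA, carried into mitochondria as carnitine esters, and shortened there by rounds of dehydrogenation, hydration, a further dehydrogenation and thiolysis. Peroxisomes run a parallel route for very long and branched chains. PPAR alpha is bound and activated by fatty acids and acts together with the retinoid X receptor on genes of both routes. In the liver it drives the response to fasting, and in the small intestine it is active in the absorptive enterocytes, which meet fatty acids from the diet.

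PPAR alpha and its partner bind a direct repeat of the hexamer AGGTCA with 1 base between the copies, written AGGTCANAGGTCA. Promoter sequences of RefSeq (GRCm38.p6), each with 250 bases before and 50 bases after the start site, were found for 26 of the 32 genes, and both strands were searched. The hexamer alone occurred in the promoters of 6 of these 26 genes (23.1%), against 18.1% of all 27025 genes with a promoter. With up to 2 mismatches outside the spacer, the repeat occurred in 4 of the 26 genes (15.4%), namely Acot4, Creb3l3, Etfa and Plin2, against 4.40% of all genes. No promoter of the 26 held it with up to 1 mismatch, which 0.644% of all genes did. The windows of the 5 genes of largest ratio among these 26 follow, 5′ to 3′ on the gene's own strand. Capitals mark the closest match to the repeat, and the windows of Pdk4 and Acot1 have none. Matches to the hexamer and to the repeat can overlap.

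Pdk4 (chr6:5496229-5496528, minus strand): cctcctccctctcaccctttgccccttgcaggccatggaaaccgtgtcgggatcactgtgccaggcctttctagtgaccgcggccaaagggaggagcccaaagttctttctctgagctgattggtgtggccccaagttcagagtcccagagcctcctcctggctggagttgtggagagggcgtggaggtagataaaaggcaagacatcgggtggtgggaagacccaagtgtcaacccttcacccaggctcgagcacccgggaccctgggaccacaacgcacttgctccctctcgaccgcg
Creb3l3 (chr10:81092542-81092841, minus strand): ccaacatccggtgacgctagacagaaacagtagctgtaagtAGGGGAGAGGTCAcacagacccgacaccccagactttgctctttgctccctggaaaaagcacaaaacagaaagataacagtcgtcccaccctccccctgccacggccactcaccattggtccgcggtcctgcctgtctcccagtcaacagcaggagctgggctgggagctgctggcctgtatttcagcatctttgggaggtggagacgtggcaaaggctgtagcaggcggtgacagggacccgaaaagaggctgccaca
Acot1 (chr12:84009252-84009551, plus strand): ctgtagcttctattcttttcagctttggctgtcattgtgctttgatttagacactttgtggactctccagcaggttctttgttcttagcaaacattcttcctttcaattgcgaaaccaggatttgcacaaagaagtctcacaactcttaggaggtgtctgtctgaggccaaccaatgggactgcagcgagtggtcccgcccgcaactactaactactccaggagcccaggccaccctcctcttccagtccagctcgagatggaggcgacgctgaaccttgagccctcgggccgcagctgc
Plin2 (chr4:86670010-86670309, minus strand): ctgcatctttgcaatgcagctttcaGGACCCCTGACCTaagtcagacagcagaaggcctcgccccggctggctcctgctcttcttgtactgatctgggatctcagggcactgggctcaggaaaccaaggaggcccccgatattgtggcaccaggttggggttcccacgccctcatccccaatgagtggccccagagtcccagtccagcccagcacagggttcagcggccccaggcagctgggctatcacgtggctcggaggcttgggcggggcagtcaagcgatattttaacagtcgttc
Acot4 (chr12:84038129-84038428, plus strand): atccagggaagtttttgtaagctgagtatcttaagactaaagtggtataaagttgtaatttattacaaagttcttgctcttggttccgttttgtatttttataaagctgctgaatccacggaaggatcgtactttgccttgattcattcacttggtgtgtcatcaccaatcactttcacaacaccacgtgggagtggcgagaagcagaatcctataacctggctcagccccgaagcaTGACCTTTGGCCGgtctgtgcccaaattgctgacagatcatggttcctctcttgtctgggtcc

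The match in Creb3l3, AGGGGAGAGGTCA, lies on the gene's strand at bases -209 to -197, counted from the start site with -1 as the last base before it. Those of Plin2, GGACCCCTGACCT at -225 to -213, and Acot4, TGACCTTTGGCCG at -13 to -1, read as the repeat on the opposite strand. Creb3l3 has a second RefSeq window, without a match. These matches are descriptions of the letters in the windows.

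Across the 32 genes, 3 rose in FAF by a rule of size that asks for a mean of at least 2-fold and at least 1.5-fold the same way on each array. These were Pdk4, Creb3l3 and Acot1, and 0 genes fell. By the same rule 1.53% of all measured genes rose and 0.88% fell. Below that threshold the ratios leaned the same way. The median ratio was 0.48, against -0.0009 over all measured genes, and 28 of the 32 genes (87.5%) were above 0 on both arrays, against 38.7% of all genes. Below 0 on both arrays were 2 genes, Vnn1 and Angptl4, against 39.4% of all genes, and in Cpt1a and Acot8 the arrays differed in sign. Ratios above 0.5 were found in 15 of the 32 genes (46.9%), against 6.24% of all genes. The arrays gave the genes a median of 0.52 (FAF in Cy5) and 0.47 (FAF in Cy3). Whole tissue was measured, so fewer cells of a type and less RNA per cell cannot be told apart. Enterocyte markers stood higher alongside these genes, with 7 of 16 past the rule and a median of 0.90. General epithelial markers had a median of -0.13, and smooth muscle markers stood lower, with a median of -0.52. The marker lists are summarised after the pathway genes.

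**Figure D1:**
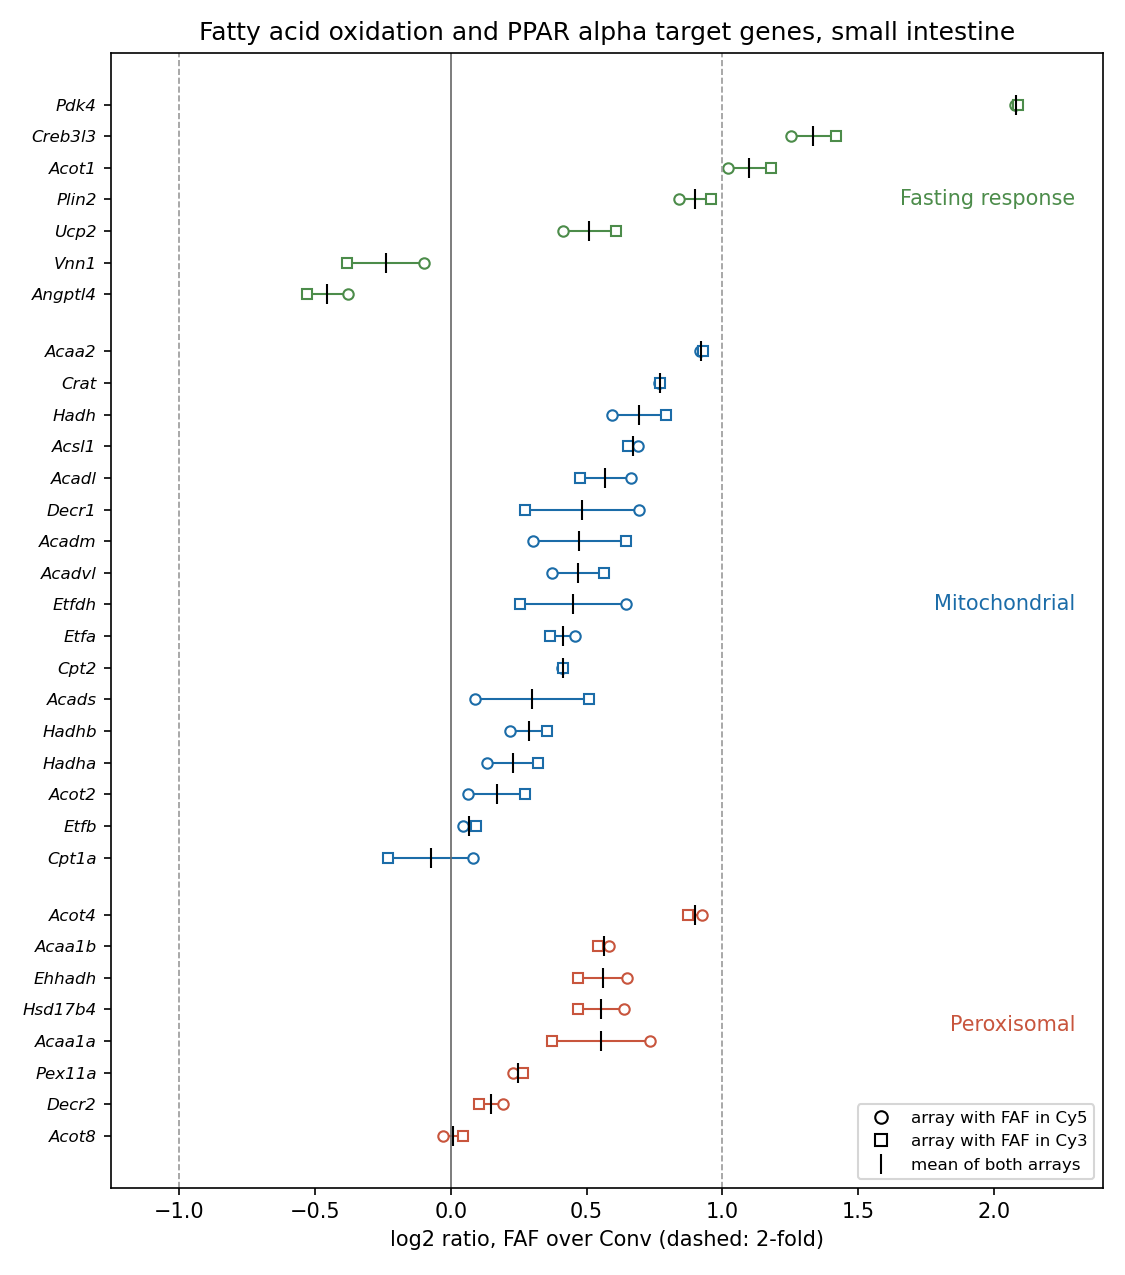
Log2 ratio of FAF over Conv for the 32 genes, in their 3 classes and by size. Circles are the array with FAF in Cy5, squares the array with FAF in Cy3, and the upright bar their mean. Dashed lines mark 2-fold. Pdk4, Creb3l3 and Acot1 lie beyond the line on both arrays, and 2 genes, Vnn1 and Angptl4, lie below 0 on both.

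The 7 genes of the fasting response spread the most, with ratios between -0.45 and 2.08 and a median of 0.90. All 3 genes that rose were among them. Pdk4, the kinase that shuts off pyruvate dehydrogenase and so spares glucose, had normalised log2 signals of 10.61 and 10.47 in FAF, against 8.53 and 8.39 in Conv. In this and the following pairs, the value of the array with FAF in Cy5 comes before that of the array with FAF in Cy3. The 2 values of a diet are readings of the same RNA. Both FAF signals lay above both Conv signals. The ratio was 2.08 ± 0.0054, or 4.23-fold, and 25 of the 17162 genes had a higher one. Its probe lies on chromosome 6 at 5433441 to 5433500 in mouse build mm9, as the array files give it.

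Creb3l3 encodes a transcription factor of liver and intestine that is held in the endoplasmic reticulum membrane until it is cleaved, and that acts with PPAR alpha in fasted liver. Its log2 signals were 14.82 and 14.83 in FAF, against 13.57 and 13.41 in Conv. The FAF signals lay above the Conv signals, and the ratio was 1.34 ± 0.08, or 2.52-fold, with 128 genes higher. Its probe lies on chromosome 10 at 80547319 to 80547378 (mm9).

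Acot1 is a cytosolic thioesterase that splits long-chain acyl-CoA into free fatty acid and CoA. It had log2 signals of 10.53 and 10.58 in FAF, against 9.51 and 9.40 in Conv. The ratio of 1.1 ± 0.08, or 2.14-fold, was just past the rule, with 1.02 on the array with FAF in Cy5 and 1.18 on the other. Its probe lies on chromosome 12 at 85358452 to 85358511 (mm9).

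The other 4 genes of the fasting response did not pass. Plin2, the coat protein of lipid droplets, came nearest, with log2 signals of 13.48 and 13.52 in FAF against 12.64 and 12.56 in Conv. Its ratio was 0.90 ± 0.06, or 1.87-fold, and its probe lies on chromosome 4 at 86302676 to 86302735 (mm9). Both arrays placed Plin2 above 0.8 and below the 2-fold line. Ucp2, a carrier of the inner mitochondrial membrane, had a ratio of 0.51 ± 0.10 on its brightest probe, while its 3 probes ranged between -0.06 and 0.51 and so differed in sign.

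Angptl4 and Vnn1 had the lowest ratios of the 32 genes. Angptl4, a secreted inhibitor of lipoprotein lipase, had log2 signals of 11.95 and 11.86 in FAF, against 12.32 and 12.39 in Conv. Here both FAF signals lay below both Conv signals, and the ratio was -0.45 ± 0.08, short of the rule, with 1129 genes lower. Its probe lies on chromosome 17 at 33911880 to 33911939 (mm9). Vnn1, a pantetheinase of the cell surface, had log2 signals of 11.82 and 11.75 in FAF, against 11.91 and 12.13 in Conv. Its ratio of -0.24 ± 0.14 was -0.10 on the array with FAF in Cy5 and -0.38 on the other.

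**Figure D2:**
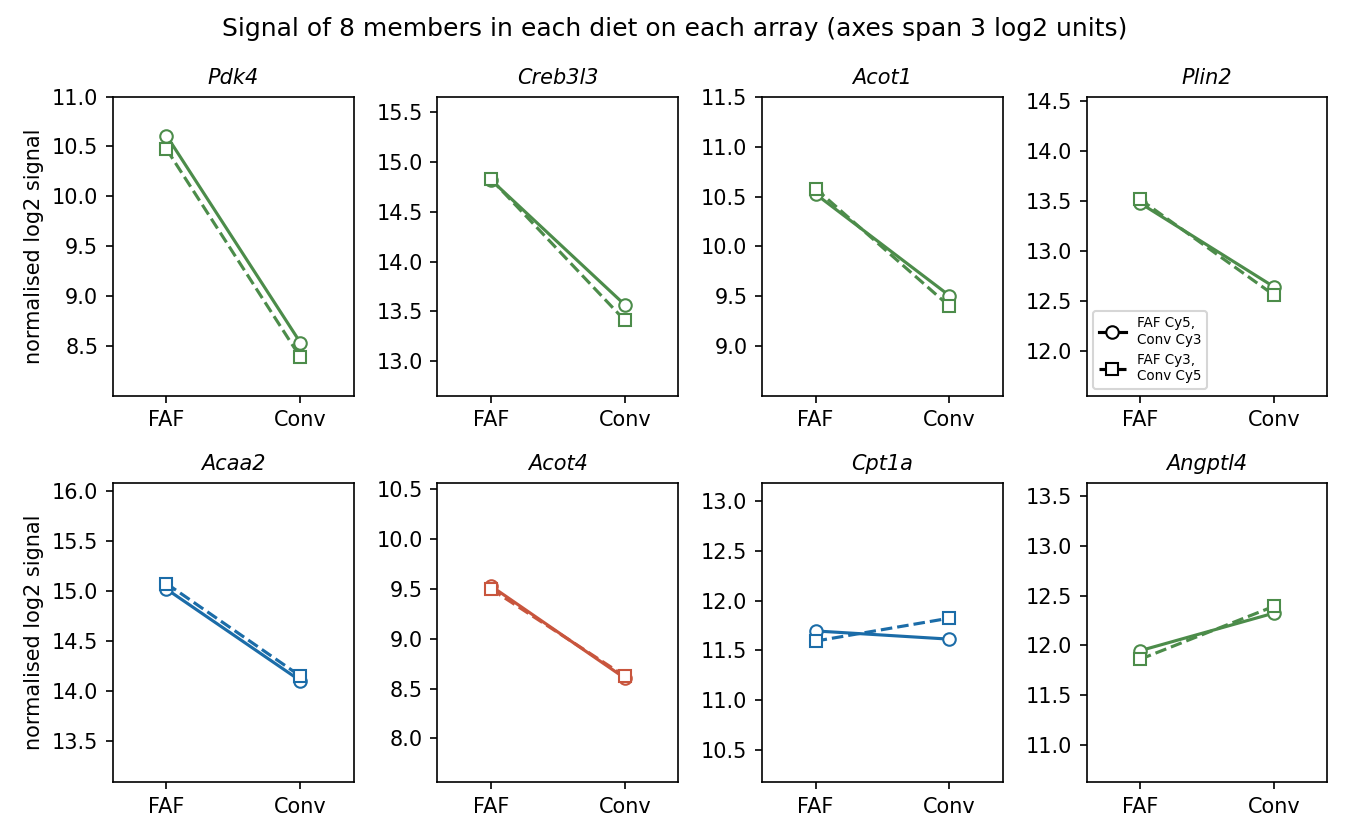
Normalised log2 signal of 8 of the genes in FAF and in Conv on each array. Circles and solid lines are the array with FAF in Cy5, squares and dashed lines the array with FAF in Cy3, and each vertical axis spans 3 log2 units. FAF is higher on both arrays in 6 genes, lower on both in Angptl4, and the arrays cross in Cpt1a. Levels of different probes cannot be set against each other.

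The 17 mitochondrial genes had a narrower spread, between -0.07 and 0.92. Their median was 0.45, and 0 passed the rule in either direction. In the mean 16 were above 0, against 49.8% of all measured genes. A smaller limit asks for a mean of 1.5-fold or more and the same sign on each array. By that limit 4 of the 17 were higher and 0 lower. Of all 32 genes 9 were higher, where 4.52% of all measured genes were, and 0 were lower, where 3.59% were. The 4 were Acaa2, Crat, Hadh and Acsl1.

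Ratios of the genes for entry into mitochondria were uneven along the carnitine route. Acsl1, which activates long-chain fatty acids to acyl-CoA, had log2 signals of 12.37 and 12.36 in FAF, against 11.68 and 11.71 in Conv. Its ratio was 0.67 ± 0.02, or 1.59-fold, and its 3 probes lay between 0.47 and 0.67. Cpt1a, the carnitine palmitoyltransferase of the outer membrane that sets the rate of entry, had signals of 11.69 and 11.59 in FAF, against 11.61 and 11.82 in Conv. The signals of FAF and Conv overlapped, and the 2 arrays gave opposite signs, 0.08 and -0.23. The Cpt1a probe is printed in 10 spots, and the SD over spots was 0.03 on the array with FAF in Cy5 and 0.05 on the other, so the arrays differed by more than their spots did. Its other probe stood at 0.08. Cpt2, the partner enzyme of the inner membrane, had a ratio of 0.41 on both arrays. Crat, which moves acetyl groups to and from carnitine, had signals of 12.30 and 12.36 in FAF, against 11.54 and 11.58 in Conv, a ratio of 0.77 ± 0.002, or 1.70-fold.

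The acyl-CoA dehydrogenases open each round of oxidation and divide the work by chain length. Their ratios were all above 0 and none passed the rule. Acadvl, for very long chains, had 0.47 ± 0.10, Acadl, for long chains, 0.57 ± 0.09 and Acadm, for medium chains, 0.47 ± 0.17. Acads, for short chains, had 0.30 ± 0.21, and its arrays gave 0.09 and 0.51. The order of these 4 genes lies within the distance between the arrays. Electrons from all 4 pass through the electron transfer flavoprotein, whose subunit genes Etfa and Etfb had 0.41 ± 0.05 and 0.07 ± 0.02. Etfa and Etfb did not overlap between arrays, with 0.46 and 0.37 for Etfa against 0.04 and 0.09 for Etfb. Etfdh, which hands the electrons on to ubiquinone, had 0.45 ± 0.20, and 0.33 on its other probe.

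Genes for the last steps of the round differed in their ratios. Acaa2, the mitochondrial ketoacyl-CoA thiolase that releases acetyl-CoA, had the largest ratio of the 17. Its log2 signals were 15.02 and 15.08 in FAF, against 14.10 and 14.15 in Conv, and both FAF signals lay above both Conv signals. The ratio was 0.92 ± 0.0045, or 1.90-fold, just short of the rule. Its probe is printed in 10 spots, with an SD over spots of 0.07 on the array with FAF in Cy5 and 0.04 on the other. Hadh, the hydroxyacyl-CoA dehydrogenase for shorter chains, had 0.69 ± 0.10, or 1.62-fold. The trifunctional protein carries out hydration, this dehydrogenation and thiolysis on long chains. Its subunit genes Hadha and Hadhb had lower ratios than Hadh and Acaa2, of 0.23 ± 0.09 and 0.29 ± 0.07. Hadha and Hadhb lie 273 bases apart on opposite strands (GRCm38.p6), and their promoter windows share 228 bases. Decr1, a dienoyl-CoA reductase for unsaturated chains, had 0.48 ± 0.21, and 0.21 on its other probe. Acot2, a mitochondrial thioesterase, had 0.17 ± 0.11. Its probe was dim, with log2 signals of 6.77 and 6.94 in FAF, against 6.71 and 6.66 in Conv. The offset added in background correction shrinks the ratios of dim probes.

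The 8 peroxisomal genes had a median of 0.55, with 0.61 on the array with FAF in Cy5 and 0.42 on the other. All 8 were above 0 in the mean, between 0.01 and 0.90, against 49.8% of all measured genes. On both arrays 7 were above 0, against 38.7% of all genes, and 0 passed the rule. Acot4, a peroxisomal thioesterase, had log2 signals of 9.53 and 9.50 in FAF, against 8.60 and 8.63 in Conv. The FAF signals lay above the Conv signals, and the ratio was 0.90 ± 0.03, or 1.86-fold. Its other probe stood at 0.67, and with the log ratio of the scanner software Acot4 reached 1.02 and passed.

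The core enzymes of the peroxisomal route had similar ratios. Ehhadh and Hsd17b4, the L- and D-bifunctional enzymes that carry out hydration and the following dehydrogenation, had 0.56 ± 0.09 and 0.55 ± 0.08. The peroxisomal thiolases Acaa1a and Acaa1b had 0.55 ± 0.18 and 0.56 ± 0.02, and the 3 probes of Acaa1a lay between 0.55 and 0.66. The 4 enzymes thus differed by less than the distance between the arrays. Smaller ratios were found for Pex11a, a membrane protein of peroxisome division, at 0.25 ± 0.02, and for the dienoyl-CoA reductase Decr2 at 0.15 ± 0.04. Acot8, a thioesterase of broad chain length, had 0.01 ± 0.04, and its arrays gave -0.03 and 0.04.

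**Figure D3:**
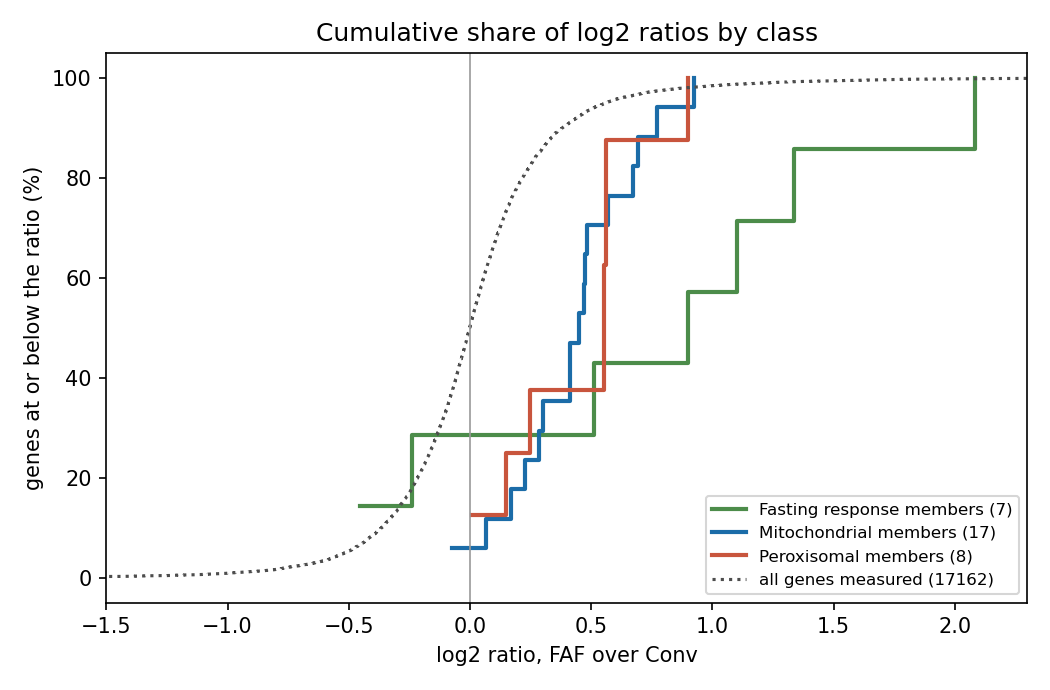
Share of genes, in percent, at or below each log2 ratio of FAF over Conv, for the 7 fasting response, 17 mitochondrial and 8 peroxisomal genes and for all 17162 measured genes (dotted). The mitochondrial and peroxisomal steps stand mostly between 0 and 0.9, and the fasting response genes reach both further down, to -0.45, and further up, to 2.08.

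Some of these genes are neighbours and members of a family. Acot1, Acot2 and Acot4 lie on chromosome 12, with Acot1 15.6 kb from Acot2 and 19.6 kb from Acot4 (GRCm38.p6). Their ratios were 1.1, 0.17 and 0.90, and both arrays placed Acot2 below Acot1 and Acot4. The dim probe of Acot2 limits this comparison. Its ratio was 0.27 with a normexp offset of 10 and 0.49 with the software's own log ratio. Their promoter windows were 59.4% to 62.5% identical. The best local alignment between the probes of Acot1 and Acot2 held 9 bases, 8 of them identical. Acaa1a and Acaa1b lie 183.9 kb apart on chromosome 9, and their promoter windows were 63.7% identical. The best local alignments between their probes held at most 6 bases. Probes were aligned with each other only. Whether a probe also detects the transcript of the neighbouring gene was not tested.

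The receptors themselves were set beside their targets. Ppara, the gene of PPAR alpha, rose in FAF, with log2 signals of 11.18 and 10.99 against 9.93 and 9.94 in Conv. The FAF signals lay above the Conv signals, and the ratio was 1.16 ± 0.10, or 2.23-fold. Of 12 genes of PPAR receptors and their partners, Ppara alone passed the rule and 0 fell, and the median was -0.10. Ppard, Pparg and the partner Rxra had ratios of -0.09, 0.46 and 0.35. These 3 were picked with their values known. The Ppard probe was dim, with log2 signals of 6.54 and 6.65 in FAF, against 6.56 and 6.80 in Conv, and the offset shrinks such ratios.

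Other genes of fatty acid activation and the carnitine shuttle had 2 of 15 higher, 0 lower and a median of 0.24. They were Slc27a2, a fatty acid transporter and acyl-CoA synthetase, at 1.24 ± 0.01 (0.91 on its other probe) and Acsl3, a long-chain acyl-CoA synthetase, at 1.05 ± 0.08. The median of 0.24 was below the 0.48 of the 32 genes. The carnitine carrier Slc25a20, which links Cpt1a to Cpt2, had 0.24 ± 0.05, picked with its value known. Of 18 other genes of mitochondrial oxidation, Acad11, of the acyl-CoA dehydrogenase family, passed at 1.04 ± 0.07, while its other probe stood at 0.19. In that list 0 fell and the median was 0.21.

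Peroxisomal oxidation outside the 32 genes had 4 genes that rose, Cat, Acox2, Scp2 and Phyh. Of the 23 genes listed 19 were measured, 0 fell and the median was 0.51. In the mean 18 were above 0, against 49.8% of all measured genes. Catalase (Cat), which removes the hydrogen peroxide made by peroxisomal oxidases, had log2 signals of 12.76 and 12.98 in FAF, against 11.25 and 11.27 in Conv, a ratio of 1.61 ± 0.10. Acox2, the oxidase for branched chains and bile acid precursors, had 1.49 ± 0.04. Scp2, which holds the thiolase for branched chains, had 1.36 ± 0.07, and Phyh, which starts the breakdown of phytanic acid, had 1.01 ± 0.02.

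Genes that build peroxisomes stayed near 0. Of 17 measured, 0 passed in either direction, the median was 0.07, and the largest ratios were those of the import factors Pex13 at 0.38 ± 0.02 and Pex5 at 0.31 ± 0.10. The tricarboxylic acid cycle, which burns the acetyl-CoA, likewise had 0 of 17 genes past the rule. Its median was 0.13, with Sucla2 at 0.57 ± 0.16 and Ogdh at 0.49 ± 0.07. Omega-oxidation, which starts at the far end of the chain, had 1 of 7 measured genes higher, Cyp4v3 at 1.34 ± 0.02, 0 lower and a median of 0.54. Cyp4a10, a textbook target of PPAR alpha in mouse liver, had 0.56 ± 0.14 on its brightest probe and up to 0.72 on its other probes. Cyp4a14, likewise a target of PPAR alpha in mouse liver, had 0.04 ± 0.03, picked with its value known. The Cyp4a14 probe was dim in both diets, and the offset shrinks such ratios. Its ratio near 0 therefore cannot show whether Cyp4a14 differed between the diets. Whether the Cyp4a10 probes also detect close copies of the gene was not tested.

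Among the ketone body enzymes, Oxct1, the transferase that lets cells burn ketone bodies, fell, with log2 signals of 12.79 and 12.60 in FAF, against 14.01 and 13.73 in Conv. Its ratio was -1.17 ± 0.04, and its 3 probes lay between -1.17 and -0.96. Of 6 genes 0 rose and Oxct1 alone fell, and the median was 0.37.

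Among 27 other PPAR targets and fasting genes measured, 5 rose and 1 fell, and the median was 0.22. Fabp1, the fatty acid binding protein of enterocytes and liver, rose 4.06-fold at 2.02 ± 0.14, and Cd36, a fatty acid uptake receptor, rose 3.44-fold at 1.78 ± 0.11. Retsat, a retinol saturase, had 1.34 ± 0.05, and Per1, a clock gene that glucocorticoids induce, had 1.23 ± 0.22. The fifth was the lipid droplet protein Cidec at 1.06 ± 0.11, picked with its value known. The gene that fell was Plin1, the droplet coat protein of fat cells, at -1.13 ± 0.04. Fat tissue markers as a list stood lower too, as given next.

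**Figure D4:**
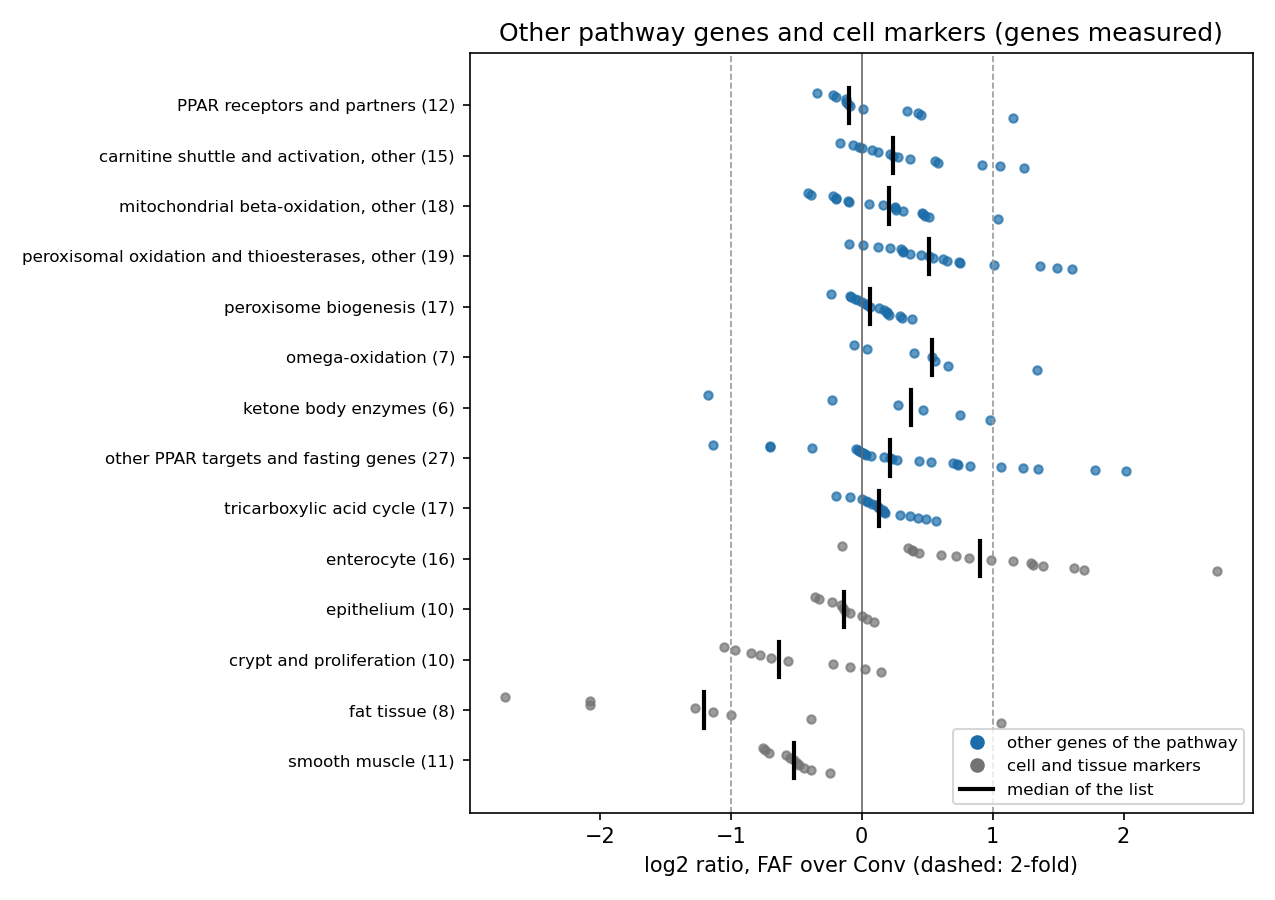
Log2 ratio of FAF over Conv for each measured gene of the other pathway lists (blue) and of 5 marker lists (grey), with the number measured in brackets and the median as a black bar. Dashed lines mark 2-fold. The medians of peroxisomal oxidation (0.51) and enterocyte markers (0.90) stand right of 0, and those of crypt, fat tissue and smooth muscle markers stand left of it.

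Enterocyte markers, of the absorptive cells, leaned in the same direction as the 32 genes. In the mean 15 of the 16 measured were above 0, against 49.8% of all measured genes. Of the 16 markers 7 rose, 0 fell and the median was 0.90. Their summed signal was 1041338 to 1076875 in FAF, against 536939 to 630459 in Conv. The largest ratios were those of the chylomicron protein Apoa4 at 2.71 ± 0.03, sucrase-isomaltase Sis at 1.70 ± 0.07, lactase Lct at 1.62 ± 0.26, trehalase Treh at 1.38 ± 0.07 and alkaline phosphatase Alpi at 1.31 ± 0.10. The lowest were Fabp2 at 0.44 ± 0.23, Vil1 at 0.39 ± 0.09, Krt20 at 0.38 ± 0.20, Cdhr5 at 0.36 ± 0.20 and Anpep at -0.15 ± 0.17, picked with their values known. Fabp2 is also on the list of other PPAR targets and fasting genes. General epithelial markers had 0 of 10 past the rule, a median of -0.13 and a summed signal of 287260 to 312482 in FAF, against 318205 to 350595 in Conv.

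Smooth muscle, crypt, fat tissue and T cell markers had ratios mostly below 0. All 11 smooth muscle markers were below 0, with a median of -0.52 and 0 past the rule. Over all 17162 measured genes, 8612 were below 0. The summed signal of the smooth muscle markers was 89008 to 90393 in FAF, against 124965 to 136283 in Conv. Of 10 crypt and proliferation markers 8 were below 0 and 1 fell by the rule, Ccnb1 at -1.05 ± 0.11. The median was -0.63. Near 0 were Pcna at -0.09 ± 0.19, Ascl2 at 0.02 ± 0.02 and Lgr5 at 0.14 ± 0.06, picked with their values known. The summed signal of the 10 markers was 17788 to 17994 in FAF, against 22978 to 25059 in Conv. Of 9 fat tissue markers 8 were measured, 5 fell and 1 rose, with a median of -1.20, led by Cfd at -2.72 ± 0.02 and Adipoq at -2.08 ± 0.0015. The fat markers' summed signal was 20428 to 22225 in FAF, against 22691 to 23423 in Conv, and Lep was not measured. Most of that sum came from the bright probes of Cidec, which rose, and Fabp4, at -0.39 ± 0.12. Cidec had log2 signals of 13.48 and 13.59 in FAF, against 12.53 and 12.43 in Conv. The sum therefore hides the fall of the 5 dimmer markers. Liver markers were near the background, with a summed signal of 740 to 762 in FAF, against 779 to 783 in Conv, over 6 of 8 genes, and Ttr and Fgb were not measured. Brown fat markers held neither Ucp1 nor Elovl3 above background, and 0 of 4 measured passed the rule, with a median of 0.26 and 3 above 0. Of 7 T cell markers 2 fell, Cd8b1 at -1.33 ± 0.08 and Cd5 at -1.05 ± 0.01, and the median was -0.43. Of 7 macrophage markers 0 passed and the median was 0.24. On both arrays 5 were above 0, against 38.7% of all measured genes. Below 0 were Lyz2 at -0.29 ± 0.05 and Itgam at -0.11 ± 0.01, picked with their values known. The macrophage markers' summed signal was 41746 to 42996 in FAF, against 48789 to 51158 in Conv. Lyz2 had the brightest probe of the list, with log2 signals of 15.26 and 15.23 in FAF, against 15.49 and 15.56 in Conv. Striated muscle markers had 0 of 6 measured past the rule and a median of -0.04. Exocrine pancreas markers had 0 of 4 measured past the rule and a median of 0.01. The part of these shifts in cell markers in the ratios of the 32 genes was not tested.

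Agreement between probes could be read in 8 of the 32 genes, since a single measured probe stood for the other 24. Among these 8 the probes agreed in sign in 6 and differed in 2, Cpt1a and Ucp2, and the gap between probes was largest in Ucp2, at 0.57. The distance of either array from the mean had a median of 0.08 over the 32 genes and was at most 0.21, in Decr1, against a median of 0.06 over all measured genes.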

How the data were processed

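Total RNA of mouse small intestine was measured on 2 Agilent whole mouse genome 4x44K arrays, a technical dye swap of 1 RNA sample per diet. The deposited scanner files hold spot intensity and background per dye, and the authors' log10 ratio of Cy5 over Cy3. Per the file headers they were made with Agilent Feature Extraction 11.5.1.1. Their quality flags, deposited beside these, mark spots well above background and outliers. The deposited value table equals that log10 ratio to within 5.0e-08, with no turning for the dye swap.

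Mean spot intensity was background corrected by normexp (offset 50) and normalised by loess, with control spots at weight 0, in limma 3.58.1 and R 4.3.3. Log2 ratios were turned to FAF over Conv and averaged. Signals per diet were scaled between arrays by Aquantile. Outlier spots, 116 and 95 of 43379 per array, were left out, and 0 spots were saturated. A probe was measured when well above background in at least 1 diet on both arrays (25440 probes), and a gene was its probe of highest mean intensity. RefSeq (GRCm38.p6) named 27668 probes by accession, and 13506 kept the file's name. A single RNA sample per diet allows no test, and the rule of size described above was used. The number of arrays limits the precision. Background correction, loess and the averaging of turned ratios were tested on simulated signals, with changes placed only in probes above the median intensity. The probe filter, the choice of probe per gene, the rule of size, the signals per diet and the promoter search were not part of that test.

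The 32 genes, the other lists and the rule for naming genes were chosen with earlier results of these data known. That rule names every one of the 32 genes and, from each other list, up to 5 genes past the rule of size by size, otherwise the 2 of largest absolute ratio. Ppara and Cyp4a10 are named in any case. Some genes that the rule takes are not reported here. Listed symbols without a probe here were not analysed.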

Additional observations from a re-analysis of the deposited data

How the results depend on the processing

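The count of 3 higher and 0 lower genes among the 32 was the same under median centring in place of loess, the mean of all probes of a gene, no background correction, a normexp offset of 10, and each array alone. Both other filters on dim probes left every ratio of the 32 genes as it was, and so could not change the count. With the software's own log ratio the count of higher genes was 4, since Acot4 reached 1.02. A 1.5-fold rule gave 9 higher and a 4-fold rule 1, Pdk4, with 0 lower in each. The median of the 32 genes, 0.48, was 0.52 under median centring, 0.44 with the mean over probes, 0.52 from the FAF Cy5 array alone and 0.47 from the FAF Cy3 array alone, and between 0.48 and 0.50 under the other settings. No ratio past the rule changed sign. Cpt1a ranged between -0.23 and 0.08 and Acot8 between -0.03 and 0.05 over the settings. Pdk4 ranged between 2.08 and 2.34 and Acot2 between 0.06 and 0.49. Over all measured genes, the 263 higher and 151 lower became 487 and 350 with the software's log ratio, 183 and 82 under median centring, 775 and 616 at 1.5-fold, and 31 and 18 at 4-fold. Median centring left a correlation of 0.163 between the arrays, against 0.898 with loess. No paired analysis was possible because there was 1 RNA sample per diet. The same limit holds for every ratio, and the offset shrinks the ratios of dim genes.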

Other observations

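Ratios ranged widely within some gene families. Of the pyruvate dehydrogenase kinases, Pdk4 stood at 2.08 ± 0.0054, Pdk2 at 0.53 ± 0.16, Pdk1 at -0.04 ± 0.12 and Pdk3 at -0.38 ± 0.06. The signs of Pdk4 and Pdk3 were opposite on both arrays. Among the perilipins, which coat lipid droplets, Plin2 had 0.90 ± 0.06, Plin3 0.17 ± 0.02, Plin5 0.03 ± 0.03, Plin4 -0.70 ± 0.0015 and Plin1 -1.13 ± 0.04. The Plin5 probe was dim, with log2 signals of 6.48 and 6.51 in FAF, against 6.42 and 6.51 in Conv. Cidec, a droplet protein on the fat tissue list, stood apart from that list at 1.06 ± 0.11, where 7 of the 8 measured markers were below 0. Ratios of fatty acid activation genes also differed, with Acsl3 at 1.05 ± 0.08, Acsl1 at 0.67 ± 0.02, Acsl5 at 0.56 ± 0.02, Acsl4 at 0.13 ± 0.05 and Acsl6 at -0.02 ± 0.03. Except for the genes named in the report, these were picked with their values known, with 1 RNA sample per diet and no test.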
